A study of Mus musculus with 6 samples.

Results

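Collagens are the structural proteins of the extracellular matrix, and the genes described here are the mouse collagen chains of every type except type VI. They were taken as all protein-coding entries of the deposited count table whose symbol has the form of a collagen chain (Col, a type number, the letter a and a chain number), without the chains of type VI. The rule found 38 genes among the 54532 entries of the table. By textbook class, 8 are fibrillar chains, 9 are chains of basement membranes, 7 are chains best known from cartilage and 14 belong to other groups, namely fibril-associated, transmembrane, network-forming and unclassified chains. The genes and their classes were chosen with earlier results of these data in view, but not by a measured value.

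The libraries came from perfused whole lungs of untreated mice at 2 months of age. There were 3 WT mice of the strain C57BL/6J, bought from a supplier, and 3 ISM1-/- mice, in which the gene of the secreted protein isthmin-1 was knocked out, bred in-house on the C57BL/6J background. Each mouse gave 1 library, and no other allele, agent or treatment was named for either group. The source of the animals differs with the genotype, so the contributions of the pair cannot be told apart. In whole-lung RNA, fewer cells of a type and less RNA per cell cannot be told apart either. Total counts were 37606133 to 42345042 per library, and no pair of libraries matched within sampling noise. The targeted gene, Ism1, kept 65.5 to 75.7 normalised counts (CPM, counts scaled to the library) in the libraries labelled ISM1-/- against 76.9 to 82.2 CPM in WT, a difference that did not pass the test (log2 fold change −0.19, adjusted p = 0.217 by the quasi-likelihood test of edgeR with the Benjamini-Hochberg procedure), so the genotype of a library rests on its label. Markers of alveolar type 2 cells, among them the surfactant gene Sftpc, summed to 25400 to 27300 CPM, so the defining genes of lung tissue were present in every library.

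A collagen molecule is a helix of 3 chains, each built from repeats of glycine and a pair of other residues (Gly-X-Y), and some types are built from different chains while others use a single kind. Fibrillar collagens, led in lung by types I and III, give alveolar walls, airways and vessels their tensile strength. Type IV collagen forms the sheet of basement membranes, in which the common network of Col4a1 and Col4a2 lies beside a network of Col4a3, Col4a4 and Col4a5 that is known from the alveolar and glomerular basement membranes. Smaller groups decorate fibrils, span the plasma membrane or form short-chain networks.

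The repeat is written in the genes themselves. Of the 1782 coding exons in the longest coding transcripts of the 38 genes, 452 (25.4%) are exactly 54 bases long, against 0.673% of 196481 coding exons over 21901 protein-coding genes, and 62.9% have a length that is a multiple of 9 bases against 14.5%. In 437 of the 452 exons, a glycine codon (GGN) opens each of the 6 triplets of codons. By class, exons of 54 bases, with or without this pattern, made up 47.4% of the coding exons in fibrillar chains and 44.3% in cartilage chains. Their share was 15.5% in the other groups and 4.44% in chains of basement membranes. Col8a1, Col8a2, Col10a1 and Col26a1 have no exon of this length. The exons below are shown for chains that the results turn on, 5′ to 3′ in the direction of transcription, with the glycine codons in capitals. They are from GRCm38 with the exon numbers of GENCODE M21.
Col1a1, exon 8 of 51, chr11:94939904-94939957, forward strand: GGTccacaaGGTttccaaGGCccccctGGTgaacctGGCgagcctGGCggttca
Col1a2, exon 8 of 52, chr6:4515481-4515534, forward strand: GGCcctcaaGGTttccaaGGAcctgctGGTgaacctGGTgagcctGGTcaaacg
Col3a1, exon 6 of 51, chr1:45325360-45325413, forward strand: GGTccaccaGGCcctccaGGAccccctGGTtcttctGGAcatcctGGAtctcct
Col5a1, exon 15 of 66, chr2:27965251-27965304, forward strand: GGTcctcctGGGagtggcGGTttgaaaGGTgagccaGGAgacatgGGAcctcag
Col4a1, exon 7 of 52, chr8:11245211-11245264, reverse strand: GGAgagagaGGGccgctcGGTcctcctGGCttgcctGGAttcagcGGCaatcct
Col4a2, exon 17 of 48, chr8:11413979-11414032, forward strand: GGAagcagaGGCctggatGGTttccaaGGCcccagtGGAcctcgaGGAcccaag
Col15a1, exon 25 of 40, chr4:47292320-47292373, forward strand: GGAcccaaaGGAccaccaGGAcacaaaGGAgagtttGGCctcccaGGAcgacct

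The 6 type IV genes lie in 3 head-to-head pairs, and the pairs return in the results. Col4a1 and Col4a2 start from opposite strands of chromosome 8 with 22 bases of overlap, Col4a4 and Col4a3 are 71 bases apart on chromosome 1, and Col4a6 and Col4a5 are 1308 bases apart on chromosome X. The whole stretch between Col4a4 and Col4a3 is shown because both genes are transcribed away from it. It is written on the strand of Col4a4 and holds no match to the motifs searched.
Between Col4a4 and Col4a3, chr1:82586850-82586920, reverse strand: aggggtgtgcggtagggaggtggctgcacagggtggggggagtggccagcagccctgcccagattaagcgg

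Transcripts of these chains took 0.51% to 0.602% of the counts in each library. Of the 38 genes, 33 reached 0.5 CPM in at least 1 library and were tested, and 26 had at least 100 counts in every library. The 5 that were not tested were Col9a1, Col9a2, Col10a1, Col11a1 and Col19a1, with at most 16 counts in any library. Most of the chain counts came from 7 genes, Col4a1, Col4a2, Col3a1, Col1a1, Col1a2, Col4a3 and Col4a4, which held 78.3% to 81.0% in each library. By the deposited FPKM, the order of levels ran from Col4a1, with 517 ± 32.5 in WT and 612 ± 32.5 in ISM1-/- (SD, n = 3), over Col4a2 with 355 ± 29.0 and 419 ± 17.5, and Col3a1 with 375 ± 24.6 and 374 ± 18.1, to Col1a1 with 222 ± 4.65 and 175 ± 19.3. Col1a2 followed with 197 ± 3.27 FPKM in WT and 173 ± 12.5 in ISM1-/-, ahead of Col4a3 with 148 ± 38.3 and 172 ± 9.91, Col4a4 with 63.8 ± 12 and 72.6 ± 7.14, and Col5a2 with 45.2 ± 2.94 and 47.8 ± 4.28. Col4a2 and Col3a1 overlapped in WT, Col1a1 and Col1a2 overlapped in ISM1-/-, Col1a2 and Col4a3 overlapped in ISM1-/-, and the other neighbours in this order of 8 did not overlap within a genotype. The length in the FPKM equals, within 1.1 bases, the mean length of all annotated transcripts for 95.4% of 17431 genes, short fragments included. On CPM per kilobase of the longest coding transcript, Col1a2 (79.3) lay above Col1a1 (59.6), the reverse of their order in FPKM, while Col4a1, Col4a2 and Col3a1 stayed the highest. On this scale Col5a2 (20.9) also lay below Col13a1 (29.0) and Col4a5 (27.5), which were behind it in FPKM.

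**Figure D1:**
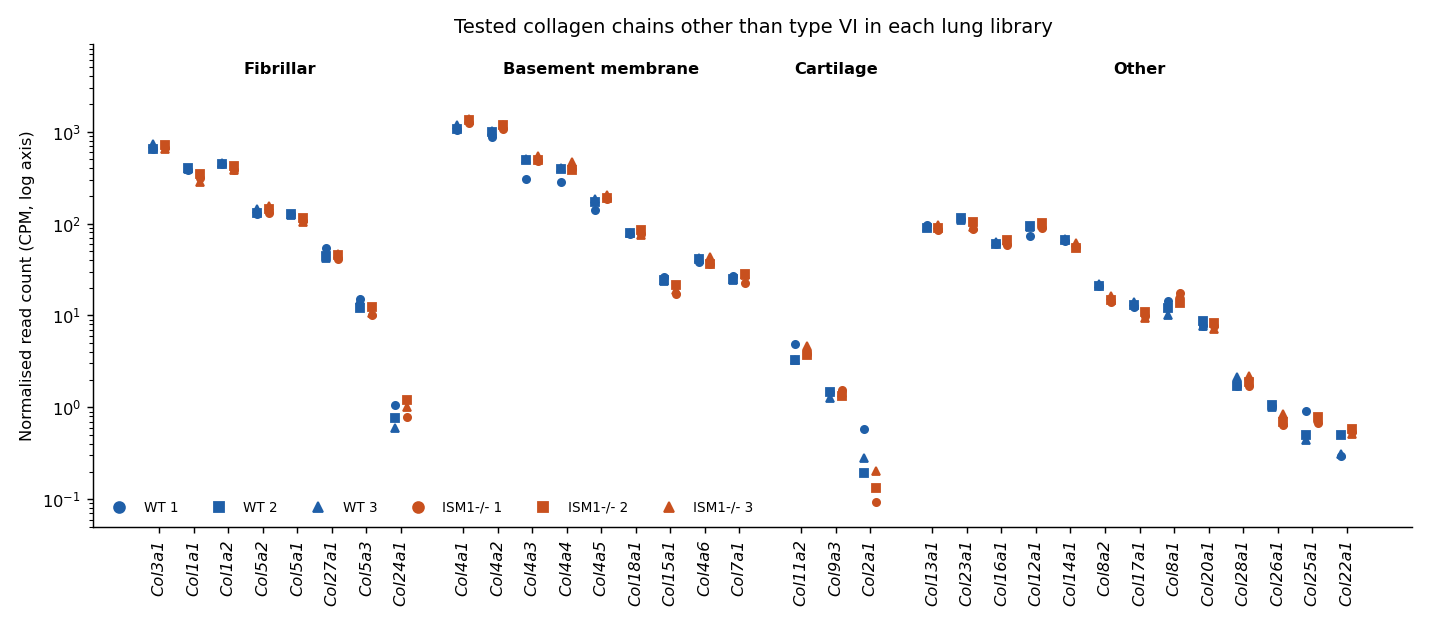
Normalised read count (CPM, logarithmic axis) of the 33 tested chains in each of the 3 WT and 3 ISM1-/- libraries, grouped by class and ordered by mean FPKM within a class. Each symbol is 1 library; Col4a1 and Col4a2 lie highest, and for most chains the symbols of both genotypes overlap.

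No tested chain was called at 2-fold between the genotypes, and 5 chains fell by a smaller amount. At a 2-fold minimum and an adjusted p under 0.1, edgeR called 0 of the 33 tested chains and 0.567% of all genes. Its quasi-likelihood test was Benjamini-Hochberg adjusted over all 18689 tested genes. DESeq2 also called 0 of the 33 chains, and 115 genes over all. In edgeR, 14 of the 33 chains had an unadjusted p under 0.05, where 15.8% of all genes did. Without the fold minimum, 5 chains (15.2%) were lower in ISM1-/- and 0 higher, where 3.34% of all genes were called lower, 1.38% higher and 4.72% in either direction. These shares over all genes are also the scale for the edgeR calls given below for classes and lists. The 5 called chains are Col8a2, Col17a1, Col15a1, Col1a1 and Col5a1. All 5 were among the 24 chains with a mean of at least 10 CPM, a range of expression in which 3.68% of all genes were called lower, 1.45% higher and 5.13% in either direction. Of the 14 chains with an unadjusted p under 0.05, 10 were lower and 4 higher, where 9.30% of all genes were lower and 6.48% higher at this threshold. The median log2 fold change over the tested chains was 0.02, beside 0.00 over all genes tested, so the chains as a list did not lie to one side.

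The number of calls depended on the library left out and on the tool. It was 4 without WT replicate 1 (where 3.62% of all genes were called), 1 without WT replicate 2 (0.806%), 1 without WT replicate 3 (1.83%), 1 without ISM1-/- replicate 1 (1.33%), 3 without ISM1-/- replicate 2 (1.40%) and 6 without ISM1-/- replicate 3 (7.91%). Col8a2 was called in all 6 of these fits, and DESeq2 called 9 chains, the same 5 with Col23a1, Col4a1, Col4a2 and Col8a1, where it called 6.88% of all genes. The 3 WT libraries and the 3 ISM1-/- libraries did not overlap for 13 chains, 4 higher and 9 lower in ISM1-/- (39.4% of the 33), where 21.6% of all tested genes had no overlap, 9.33% higher and 12.3% lower.

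**Figure D2:**
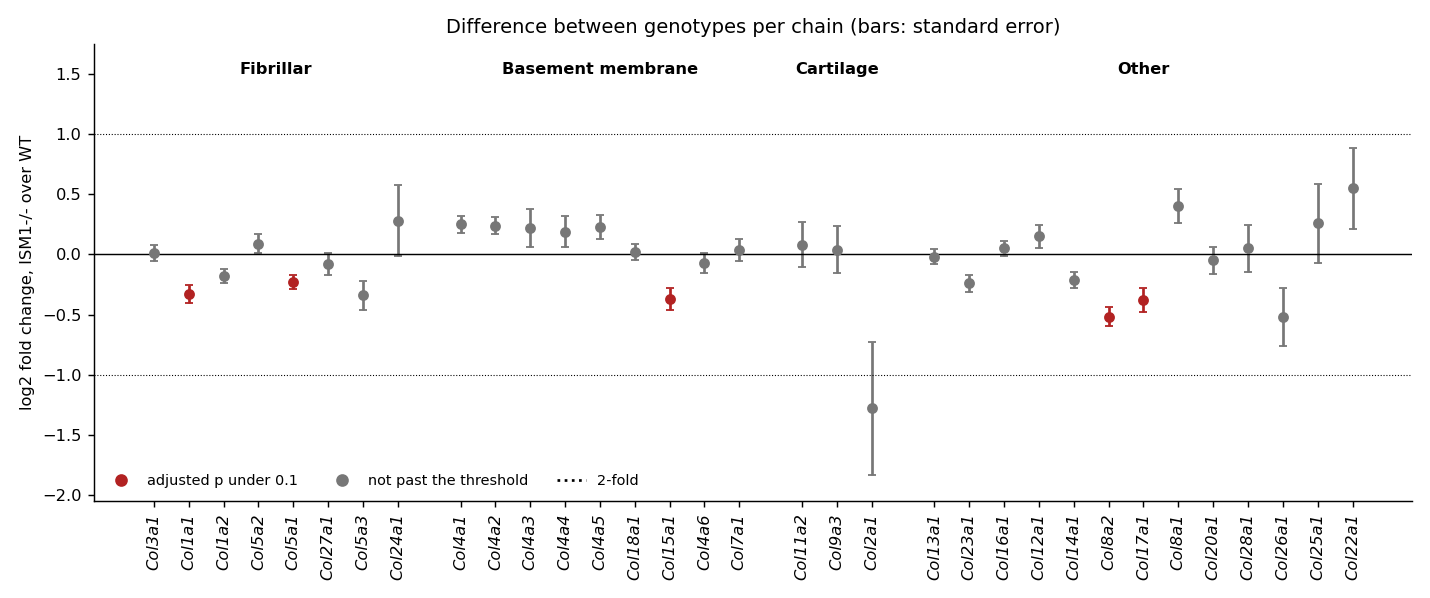
Log2 fold change of ISM1-/- over WT for the 33 tested chains by class (points) with its standard error (bars) from edgeR. The 5 chains with an adjusted p under 0.1 are drawn in red, and dotted lines mark a 2-fold change in either direction; the called chains lie between −0.52 and −0.23, and Col2a1, at −1.28, rests on 22 counts or fewer.

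Among the fibrillar chains, both type I chains had lower means in ISM1-/- and Col3a1 was level, and Col1a1 was called while Col1a2 was not. Col1a1, the more numerous chain of the type I trimer, had 385, 401 and 397 CPM in the WT libraries and 315, 344 and 280 CPM in the ISM1-/- libraries. Every ISM1-/- library lay below every WT library, and the spread among the ISM1-/- libraries was wider. Col1a1 fell by 0.33 on the log2 scale (standard error, SE, 0.0752 and edgeR adjusted p = 0.0517), to 79.4% of the WT mean. It was no longer called without WT replicate 2, WT replicate 3 or ISM1-/- replicate 1, with adjusted p = 0.183, 0.145 and 0.165 in edgeR. Col1a2, the partner chain of type I, had 444, 449 and 458 CPM in WT and 387, 428 and 379 CPM in ISM1-/-, again without overlap, but did not pass the test (log2 fold change −0.18, SE 0.062, edgeR adjusted p = 0.18). Col3a1, whose chain forms type III collagen by itself and is laid down in the same fibrils as type I, had 649, 652 and 726 CPM in WT and 671, 709 and 654 CPM in ISM1-/-. These ranges overlap almost entirely, and its log2 fold change was 0.01 (SE 0.0654, edgeR adjusted p = 0.985).

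Type V collagen starts and limits the growth of type I fibrils, and its chains did not move together. Col5a1 had 127, 128 and 124 CPM in WT and 107, 114 and 103 CPM in ISM1-/-, with all ISM1-/- libraries lower. It fell by 0.23 on the log2 scale (SE 0.0581, edgeR adjusted p = 0.0804), and by 0.17 after a correction for GC content, which ended the call (edgeR adjusted p = 0.11). That call stood in 1 of the 6 fits with a library left out, the one without ISM1-/- replicate 3 (edgeR adjusted p = 0.0795), and the adjusted p in the other fits was 0.125 to 0.271. Col5a2, the chain that joins Col5a1 in the common trimer, had 128, 131 and 144 CPM in WT and 129, 143 and 157 CPM in ISM1-/-, with overlap and a log2 fold change of 0.09 (edgeR adjusted p = 0.659). Col5a3, another chain of type V at a mean of 13.9 CPM in WT and 11 CPM in ISM1-/-, gave a log2 fold change of −0.34 (edgeR adjusted p = 0.196). The late-described fibrillar chains Col24a1 and Col27a1 had log2 fold changes of 0.28 and −0.08 and did not pass. Over the 8 fibrillar chains 2 were called lower and 0 higher, where 3.34% of all genes were called lower and 1.38% higher. Their median log2 fold change was −0.13. Their summed level was 1800, 1820 and 1910 CPM in WT and 1660, 1800 and 1630 CPM in ISM1-/-.

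Chains of basement membranes had a median above 0 where the fibrillar chains had one below, a difference that was not tested, and no higher chain among them was called by edgeR. The median log2 fold change of the 9 genes was 0.19, and their summed level was 2820, 3300 and 3470 CPM in WT and 3510, 3740 and 3930 CPM in ISM1-/-. This median is the value of Col4a4, which became 0.05 without WT replicate 1, the library with the lowest sum. The class median thus leans on 1 library. Col4a1 had 1050, 1080 and 1180 CPM in WT and 1230, 1340 and 1380 CPM in ISM1-/-, with every ISM1-/- library above every WT library. Its log2 fold change of 0.25 (SE 0.0704) came just short of the threshold in edgeR (adjusted p = 0.106) and passed it in DESeq2 (adjusted p = 0.0159). Col4a2, the head-to-head neighbour and trimer partner, had 872, 994 and 1020 CPM in WT and 1080, 1170 and 1170 CPM in ISM1-/-, also without overlap. Its log2 fold change was 0.24 (SE 0.0733), with an adjusted p of 0.129 in edgeR and 0.0289 in DESeq2. Col4a1 and Col4a2 together made up 37.8%, 37.0% and 37.6% of all counts of the 38 genes in WT and 41.1%, 41.7% and 42.3% in ISM1-/-. Over the same libraries the share of Col3a1, Col1a1 and Col1a2 was 29.0%, 26.8% and 27.0% in WT and 24.5%, 24.6% and 21.7% in ISM1-/-, which does not overlap either. Both shares are parts of the same total, so a higher share of type IV chains by itself lowers the other. In CPM, the fibrillar sum was 1800 in both WT replicate 1 and ISM1-/- replicate 2.

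In the second type IV network, a WT library stood apart from the other mice. Col4a3 had 302, 487 and 502 CPM in WT and 475, 491 and 541 CPM in ISM1-/-. Its low value in WT replicate 1 stood apart, and the other 5 libraries lay close together. The log2 fold change was 0.22 (SE 0.16, edgeR adjusted p = 0.558), and without WT replicate 1 it was 0.02. Col4a4, 71 bases away on the opposite strand, had the same shape, with 284, 397 and 406 CPM in WT and 392, 385 and 467 CPM in ISM1-/-. Here too WT replicate 1 was lowest, and the log2 fold change of 0.19 (edgeR adjusted p = 0.522) became 0.05 without it. Col4a5, which joins them in the trimer, had 139, 172 and 186 CPM in WT and 187, 190 and 206 CPM in ISM1-/-. The genotypes touched without overlapping, and the log2 fold change was 0.23 (edgeR adjusted p = 0.289) with all libraries and 0.12 without WT replicate 1. Col4a6, its head-to-head neighbour, had 38.1, 41.0 and 42.5 CPM in WT and 36.4, 36.4 and 43.4 CPM in ISM1-/-, so the ranges overlapped and the log2 fold change was −0.07 (edgeR adjusted p = 0.782). Beside the 3 chains with a low WT replicate 1, the 8 markers of alveolar type 1 cells, the flat cells that line the alveoli, summed to 4870 CPM in WT replicate 1, 6330 to 6490 CPM in the other WT libraries and 6310 to 6640 CPM in ISM1-/-. Of these markers 1 was called higher, Rtkn2, and none was at 0 in any library; the most abundant was Ager. The 8 endothelial markers, led by Cdh5, summed to 4200 to 4390 CPM in WT and 4440 to 4670 CPM in ISM1-/-, with 0 called by edgeR and none at 0. The part of either cell type in the levels of type IV chains was not tested.

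**Figure D3:**
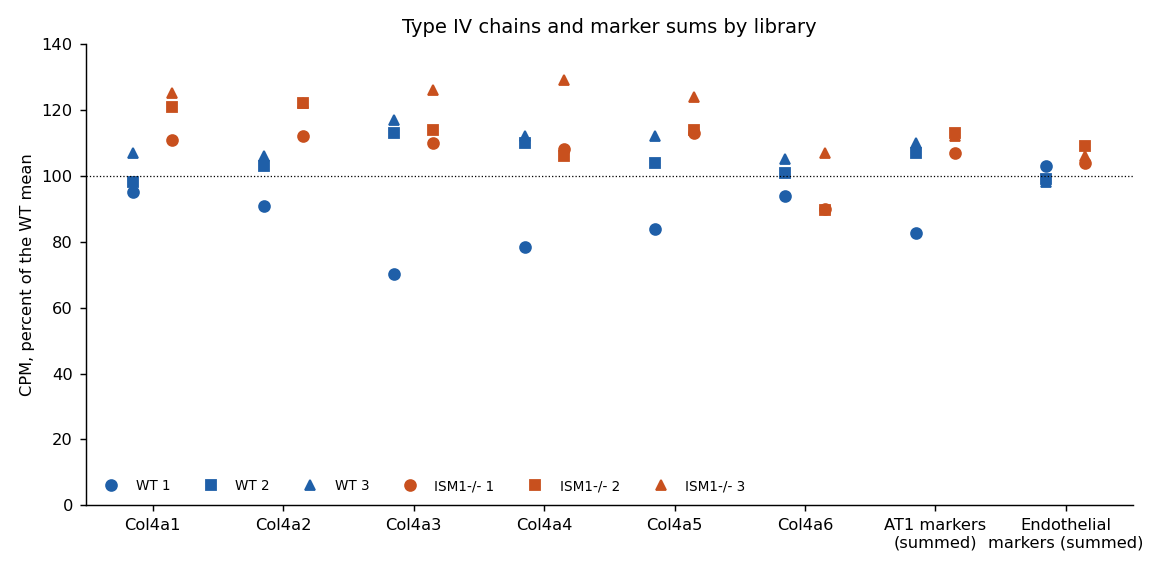
CPM of the 6 type IV chains and the summed CPM of 8 alveolar type 1 (AT1) and 8 endothelial markers in each library, as a percent of the WT mean (dotted line at 100). Each symbol is 1 library; WT replicate 1 is at 70.2% for Col4a3, 78.3% for Col4a4 and 82.6% for the AT1 markers, and all ISM1-/- libraries exceed all WT libraries for Col4a1, Col4a2 and Col4a5.

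The remaining basement membrane genes include 1 called fall. Col15a1, whose product lies where basement membranes meet the fibres beneath them, had 26.2, 24.6 and 23.6 CPM in WT and 17.1, 21.5 and 18.9 CPM in ISM1-/-. All ISM1-/- libraries were lower, with a fall of 0.37 on the log2 scale (SE 0.0909, edgeR adjusted p = 0.0671) to 77.2% of the WT mean. Without WT replicates 1, 2 or 3 or ISM1-/- replicate 1 the adjusted p in edgeR was 0.17, 0.195, 0.13 and 0.213, and in the other fits it passed. Col18a1, the nearest relative of Col15a1 and the source of the fragment endostatin, had means of 78.4 ± 0.693 CPM in WT and 79.5 ± 5.23 CPM in ISM1-/- (SD, n = 3) with a log2 fold change of 0.02 (edgeR adjusted p = 0.924). Col7a1, the chain of anchoring fibrils, gave 0.04 (edgeR adjusted p = 0.893).

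Transcripts of the cartilage chains were scarce in these lungs. Only 3 of the 7 passed the filter, and the class summed to 5.51 to 7.82 CPM in WT and 5.61 to 7.07 CPM in ISM1-/-. Col11a2, a minor fibril chain of cartilage, was the highest with means of 3.81 ± 0.901 CPM in WT and 4.03 ± 0.508 CPM in ISM1-/- (SD, n = 3). Col9a3 had 1.40 CPM and 1.44 CPM. Col2a1, the main collagen of cartilage, was counted 22, 8 and 11 times in WT and 4, 5 and 8 times in ISM1-/-. Its log2 fold change of −1.28 (SE 0.552, edgeR adjusted p = 0.294) did not pass the test. The 12 chondrocyte markers summed to 43.9 to 46.8 CPM in WT and 31.9 to 34.4 CPM in ISM1-/-, nearly all from Chad and Cytl1, with 1 of the 5 that were tested called lower (Chad) and 0 higher. The cartilage markers Acan, Matn1, Cnmd, Snorc, Ucma and Epyc were at 0 in at least 1 library.

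Among the other groups, the short-chain network collagen of type VIII held the chain with the smallest adjusted p of the 33 tested. Its chains are known from the inner layer of vessels and from Descemet's membrane of the cornea. Col8a2 had 21.1, 21 and 21.9 CPM in WT (794, 872 and 848 counts) and 13.9, 14.7 and 16.1 CPM in ISM1-/- (592, 556 and 627 counts). The genotypes were well apart relative to the spread within each, and Col8a2 fell by 0.52 on the log2 scale (SE 0.0787, edgeR adjusted p = 0.0163), to 69.8% of the WT mean. With a library left out, its adjusted p in edgeR was 0.00654 to 0.0808. Col8a1 pointed the opposite way, with 14.5, 12 and 10.2 CPM in WT and 17.7, 13.7 and 17.0 CPM in ISM1-/-. The ranges overlapped, and its log2 fold change of 0.40 (SE 0.14) did not pass in edgeR (adjusted p = 0.185) but did in DESeq2 (adjusted p = 0.0836).

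Of the transmembrane collagens, which are anchored in the plasma membrane of the cell that makes them, Col17a1 was called. This chain belongs to hemidesmosomes, the junctions that fix epithelial cells to their basement membrane. It had 12.2, 12.9 and 14.0 CPM in WT and 9.85, 10.8 and 9.36 CPM in ISM1-/-, without overlap, and fell by 0.38 on the log2 scale (SE 0.0966, edgeR adjusted p = 0.076). Without WT replicates 2 or 3 or ISM1-/- replicates 1 or 2 the adjusted p in edgeR was 0.21, 0.242, 0.214 and 0.134. The 8 basal and squamous epithelial markers, the cells best known for this chain, summed to 4.79 to 8.61 CPM in WT and 3.69 to 4.95 CPM in ISM1-/-, with 1 of them called lower (Krt15), 0 higher and Dsg3 at 0 in every library; their part in the level of Col17a1 was not tested. Col23a1 had means of 111 ± 3.55 CPM in WT and 94.5 ± 8.64 CPM in ISM1-/- (SD, n = 3) without overlap, and a log2 fold change of −0.24 that did not pass in edgeR (adjusted p = 0.129) and did in DESeq2 (adjusted p = 0.0709). Col13a1, the most abundant of this group per kilobase, was level at 92.4 ± 3.32 CPM and 90.8 ± 5.69 CPM (SD, n = 3; edgeR adjusted p = 0.905). Col25a1 stayed under 1 CPM in each library.

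The fibril-associated chains, which coat the surface of fibrils, gave no call among 5 tested. Col14a1 had 64.0, 65.5 and 67.3 CPM in WT and 55.6, 53.9 and 61.2 CPM in ISM1-/-, all lower in ISM1-/- (log2 fold change −0.21, edgeR adjusted p = 0.155). Col12a1, its closest relative, gave 0.15 and Col16a1 gave 0.05. Col22a1 rested on 11 to 23 counts per library. Col20a1 gave −0.05 and shares 79 bases of exon with a second entry on the same strand that collected about as many counts, so its level is uncertain. The unclassified chains Col26a1 and Col28a1 had log2 fold changes of −0.52 and 0.05 at levels of 0.635 to 2.20 CPM and did not pass. Of the 13 tested genes outside the 3 named classes, 2 were called lower and 0 higher, where 3.34% of all genes were called lower and 1.38% higher. Their median log2 fold change was −0.02.

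**Figure D4:**
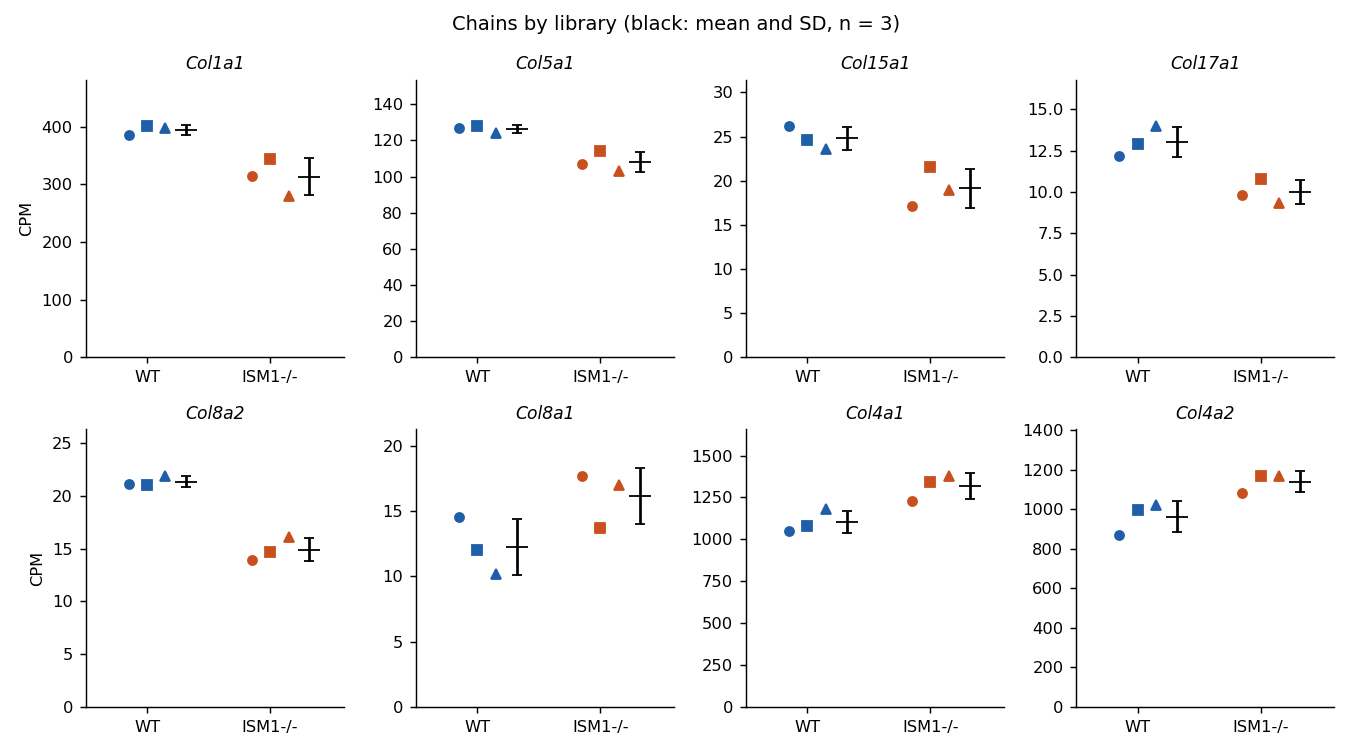
CPM (axes start at 0) of the 5 called chains and of Col8a1, Col4a1 and Col4a2 in each library, with circles, squares and triangles for replicates 1, 2 and 3 and the mean and SD (n = 3) in black. In all 5 called chains the ISM1-/- libraries lie below the WT libraries; Col4a1 and Col4a2 lie above them, and Col8a1 overlaps.

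Sequence upstream of the called chains is shown because these genes fell in the same comparison. RefSeq windows (GRCm38.p6) were given for 29 of the 38 genes, not for Col1a1. Each stretch lies upstream of the RefSeq start and holds no annotated exon. Those of Col8a2 (249 bases) and Col17a1 (198 bases) were cut short to end at the base before the GENCODE gene, not at the RefSeq start. Motifs were searched on both strands with overlapping matches counted, the GC box (GGGCGG), the CCAAT box (CCAAT) and the TATA box (TATAAA), and matches are in capitals. The first 250 bases of each 300-base window were searched for these shares. Of 32851 windows genome-wide, 32.7% held a GC box there, 33.8% a CCAAT box and 12.4% a TATA box. Of 31 windows of these collagen genes, 54.8%, 38.7% and 16.1% did. A match says only that the letters are present.
Col8a2, chr4:126286544-126286792, forward strand: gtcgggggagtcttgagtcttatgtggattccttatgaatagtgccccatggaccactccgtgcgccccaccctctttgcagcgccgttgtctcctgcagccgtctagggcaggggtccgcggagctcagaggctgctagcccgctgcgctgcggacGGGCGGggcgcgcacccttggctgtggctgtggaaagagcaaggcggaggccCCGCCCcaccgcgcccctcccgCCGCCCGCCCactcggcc
Col5a1, chr2:27886175-27886424, forward strand: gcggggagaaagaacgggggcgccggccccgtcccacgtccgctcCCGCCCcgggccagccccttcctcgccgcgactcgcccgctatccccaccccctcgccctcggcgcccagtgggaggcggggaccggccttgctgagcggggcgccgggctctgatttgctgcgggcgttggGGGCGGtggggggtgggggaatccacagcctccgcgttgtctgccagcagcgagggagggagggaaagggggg
Col15a1, chr4:47207762-47208011, forward strand: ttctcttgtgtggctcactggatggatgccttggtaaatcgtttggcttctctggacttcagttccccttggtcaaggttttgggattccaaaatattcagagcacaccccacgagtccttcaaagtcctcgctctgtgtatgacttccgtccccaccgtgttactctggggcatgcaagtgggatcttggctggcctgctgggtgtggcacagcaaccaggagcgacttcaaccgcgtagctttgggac
Col17a1, chr19:47692095-47692292, reverse strand: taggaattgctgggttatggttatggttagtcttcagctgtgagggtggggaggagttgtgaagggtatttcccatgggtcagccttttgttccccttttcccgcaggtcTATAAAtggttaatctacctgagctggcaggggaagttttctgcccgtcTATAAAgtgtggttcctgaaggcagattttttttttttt
The stretch of Col8a2 holds 4 GC boxes and that of Col5a1 holds 2, whereas Col17a1 has 2 TATA boxes and no GC box and Col15a1 has none of the 3 motifs. Their GC content runs from 45.5% in Col17a1 over 53.6% in Col15a1 and 69.9% in Col8a2 to 76.4% in Col5a1.

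Chains that share a molecule or a fibril were compared as ratios within each library, which removes the library scale. The ratio of Col1a1 to Col1a2 in FPKM was 1.11, 1.15 and 1.11 in WT and 1.05, 1.03 and 0.950 in ISM1-/-. Col1a1 to Col3a1 went from 0.594 ± 0.0360 in WT to 0.468 ± 0.0299 in ISM1-/-, and Col5a1 to Col5a2 from 0.594 ± 0.0461 to 0.479 ± 0.0580 (SD, n = 3). In type VIII, Col8a1 to Col8a2 was 0.408, 0.336 and 0.274 in WT and 0.750, 0.553 and 0.626 in ISM1-/-, the widest shift of the 8 ratios, with a log2 difference of 0.93. Col4a5 to Col4a6 went from 3.37 ± 0.315 to 4.16 ± 0.206 (SD, n = 3). For these 5 ratios the genotypes did not overlap, and each gave p = 0.1 in a two-sided exact permutation test over the 6 libraries (0.16 after Benjamini-Hochberg adjustment over 8 ratios), which is the smallest p this design allows and cannot pass 0.05. By contrast, Col4a1 to Col4a2 was 1.46 ± 0.0722 in WT and 1.46 ± 0.0278 in ISM1-/- (SD, n = 3, exact permutation p = 1), and Col4a3 to Col4a4 was 2.30 ± 0.189 and 2.38 ± 0.115 (SD, n = 3, exact permutation p = 0.7). Col4a3 to Col4a5 was 3.76 ± 0.509 in WT and 3.79 ± 0.0631 in ISM1-/- (SD, n = 3, exact permutation p = 1), and its log2 difference of 0.02 became −0.10 without WT replicate 1. The size of a ratio depends on the lengths used, since Col1a1 to Col1a2 was 0.789 in WT and 0.709 in ISM1-/- per kilobase of the longest coding transcript.

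**Figure D5:**
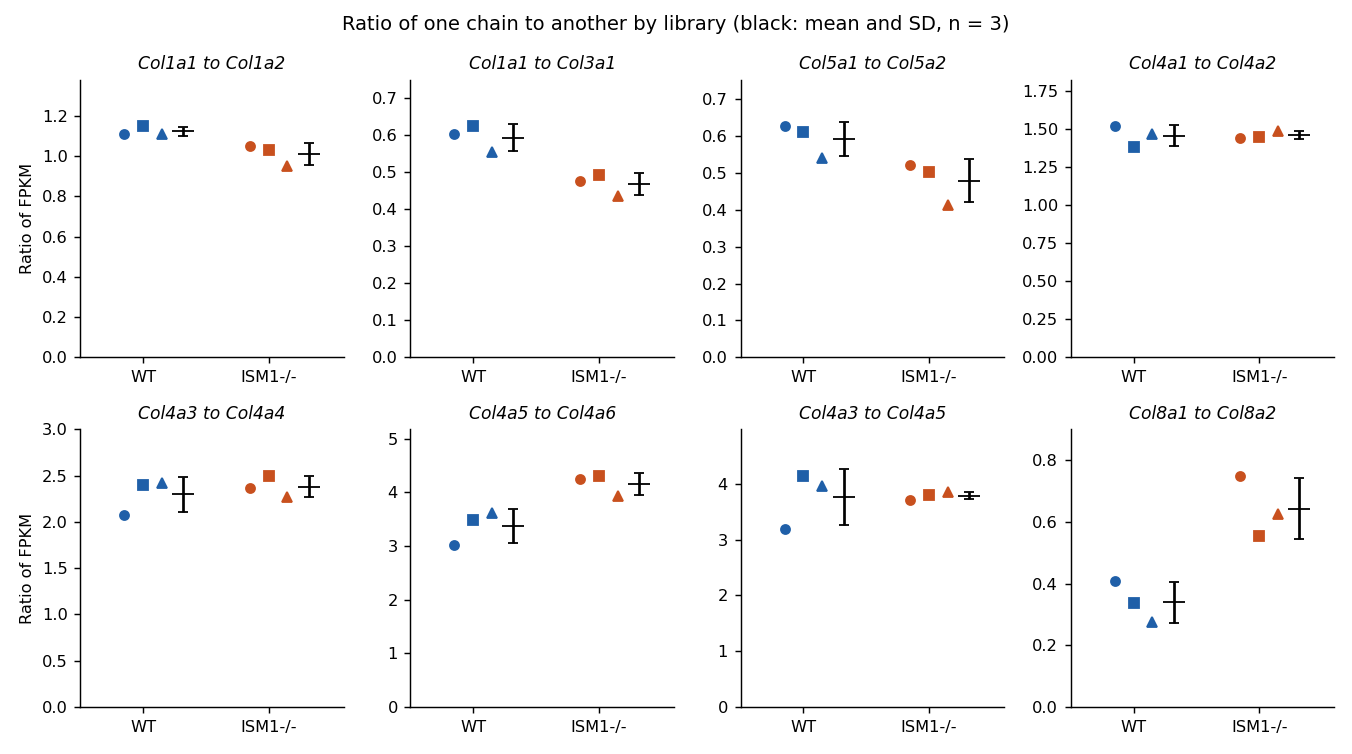
Ratio of the deposited FPKM of paired chains in each library (axes start at 0), with the mean and SD (n = 3) in black. The genotypes are apart for Col1a1 to Col1a2, Col1a1 to Col3a1, Col5a1 to Col5a2, Col4a5 to Col4a6 and Col8a1 to Col8a2, and overlap for the other pairs of type IV chains.

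The chains of type VI, which form beaded filaments, are set beside these values only for scale. Col6a4 was called at over 2-fold, from 1.54, 1.52 and 1.22 CPM in WT to 5.90, 6.19 and 7.05 CPM in ISM1-/- (log2 fold change 2.16, edgeR adjusted p = 0.00114), whereas none of the 33 tested chains was called at 2-fold. The other 5 type VI chains were not called, with log2 fold changes from −0.19 to 0.11.

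Genes that make, modify and hold collagen were mostly level. Of 15 genes for hydroxylation and glycosylation of collagen chains, 10 for folding and secretion, 7 tested for procollagen processing and 19 partners in the basement membrane, 0 were called by edgeR in either direction; in DESeq2 1 of them was, Adamts14 (below). The smallest p in each list belonged to P3h2, a prolyl 3-hydroxylase (log2 fold change 0.24, edgeR adjusted p = 0.274), Creb3l1, a transcription factor of collagen-secreting cells (−0.32, edgeR adjusted p = 0.183), Adamts14, which trims procollagen ends (0.47, adjusted p = 0.112 in edgeR and 0.0247 in DESeq2), and Npnt, the nephronectin of basement membranes (0.15, edgeR adjusted p = 0.25). The runners-up were Plod2 (0.27), Serpinh1 (0.18), Adamts2 (−0.18) and Nid2 (0.17), none past the test.

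Among the enzymes of cross-linking 1 of 7 was called, Lox, the lysyl oxidase that starts the cross-links of collagen and elastin. It had 56.1, 55.2 and 50.4 CPM in WT and 64.6, 69.7 and 83.3 CPM in ISM1-/-, without overlap, and rose by 0.43 on the log2 scale (SE 0.0936, edgeR adjusted p = 0.0477). The family was split. Loxl2 also lay higher in ISM1-/- without overlap (log2 fold change 0.16), while Loxl1 (−0.25) and Loxl4 (−0.34) lay lower without overlap, none of them called by edgeR. Of 14 tested fibril-associated proteoglycans and glycoproteins, 3 were called lower and 0 higher, where 3.34% of all genes were called lower and 1.38% higher. Dcn, decorin, which binds type I fibrils, had 172, 148 and 161 CPM in WT and 102, 97.7 and 130 CPM in ISM1-/- (log2 fold change −0.54, edgeR adjusted p = 0.0328). Lum, lumican, had 12.2, 9.06 and 10.4 CPM in WT and 4.92, 7.06 and 6.79 CPM in ISM1-/- (−0.76, edgeR adjusted p = 0.0431), and Dpt, dermatopontin, fell by 0.26 on the log2 scale (edgeR adjusted p = 0.0471). Fmod went the other way, higher without overlap (log2 fold change 0.45), not called in edgeR (adjusted p = 0.165) but called in DESeq2 (adjusted p = 0.0485). DESeq2 called 5 of this list, the same 3 with Fmod higher and Fn1 lower, where it called 6.88% of all genes. Kera, the corneal member of this list, was at 0 in every library. Of 10 collagen receptors, 1 was called, Itga2, an integrin subunit that binds collagen (0.23, edgeR adjusted p = 0.0997), a call that ended after a GC correction (edgeR adjusted p = 0.106) and a transcript length correction (0.112). With a library left out, Dcn was called in 4 of 6 fits, Lox and Lum in 3, and Dpt and Itga2 in 1.

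Markers of cells that make collagen chains, and of cells that differ between lung samples, were called lower in some lists and higher in others. Over all tested genes, edgeR called 3.34% lower and 1.38% higher. Of 12 fibroblast markers, 4 were called lower (Pi16, Gli1, Fbln1 and Serpinf1) and 0 higher, while their sum, led by Inmt, was 2720 to 2920 CPM in WT and 2790 to 3050 CPM in ISM1-/-, with none at 0. Pi16 went from 33.0 to 35.8 CPM in WT to 15.8 to 19.5 CPM in ISM1-/-. Of 8 adipocyte markers, 7 were called lower and 0 higher, all but Lpl, and the sum was 382 to 481 CPM in WT and 189 to 315 CPM in ISM1-/-, with none at 0. Smooth muscle markers summed to 642 to 742 CPM and 542 to 657 CPM with 1 of 8 called lower (Cnn1), pericyte markers to 1110 to 1310 CPM and 1300 to 1370 CPM with 1 of 7 called higher (Postn), and mesothelial markers to 301 to 338 CPM and 307 to 417 CPM with 1 of 6 called higher (Upk1b). Schwann cell markers, led by Prx, summed to 299 to 314 CPM in WT and 353 to 390 CPM in ISM1-/-. Of the 7 tested, 1 was called higher, and their median log2 fold change was −0.05. Skeletal muscle markers summed to 13.5 to 23.6 CPM and 8.16 to 12.5 CPM with 1 called lower. Cardiomyocyte markers stood at 1690 CPM in WT replicate 1, 552 to 659 CPM in the other WT libraries and 302 to 585 CPM in ISM1-/-, with 1 called lower. The alveolar type 2 markers had 0 called by edgeR. The part of any of these cell types in the levels of collagen chains was not tested.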

How the data were processed

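The members of the gene group, their classes and the lists of related genes and cell markers were chosen with earlier results of these data known. Per the labels and the study's methods, whole-lung RNA after perfusion went through poly-A selection into strand-specific libraries and read in pairs; CASAVA and STAR and the build GRCm38 (mm10) are named in the submitters' processing notes. The counting program, the annotation release and the strand setting are not given in the sources used here, so counts of overlapping genes are uncertain. The authors deposited raw read counts per gene, whole numbers without normalization, and FPKM, in which counts are divided by the library total and by 1 length per gene.

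From the counts, the 18689 genes that reached 0.5 CPM in 1 or more libraries were scaled by TMM and compared with edgeR 4.0.16 (R 4.3.3) by its quasi-likelihood test on all 6 libraries without covariates. p-values were Benjamini-Hochberg adjusted over all genes tested, and genes were called at an adjusted p under 0.1, with or without a 2-fold minimum. Replicates are different mice. CPM are TMM-scaled, standard errors are the log2 fold change over the root of the F statistic, and ratios of chains use FPKM. The gene lists print members with an adjusted p under 0.1, at most 4, and otherwise the pair with the smallest p. Loxl1, Loxl2, Loxl4, Fmod and Fn1 were added after their values were seen. For members, library values are given for called chains, the 8 with the highest mean FPKM and the type IV chains, and Col8a1, Col14a1 and Col2a1 were added after their values were seen. On simulated counts with the means of these 18689 genes of which 200 were changed, edgeR found 30 of 50 genes changed by 1.3-fold, 47 of 50 by 1.5-fold, 50 of 50 by 2-fold and 50 of 50 by 3-fold, and 25 of its 202 calls (12.4%) were unchanged genes. The changed genes were drawn only from those with a mean above about 200 counts per library, so detection at lower counts was not tested. Coordinates of all 38 members match GENCODE M 21; RefSeq windows are of GRCm38.p6. Alternatives were DESeq2 1.42.0, RLE size factors, other filters, an adjusted p under 0.05, a replicate block, corrections for GC content or transcript length, leaving out each library and, for ratios, another gene length.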

Additional observations from a re-analysis of the deposited data

How the results depend on the processing

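No chain was called at 2-fold under any alternative run. The 5 chains called without a fold minimum were 9 with DESeq2 (3 higher: Col4a1, Col4a2 and Col8a1), 10 with no filter on low counts (3 higher), 1 at an adjusted p under 0.05 (Col8a2), 4 after a GC correction, which loses Col5a1, and 1 to 6 with a library left out; RLE size factors, stricter filters and a length correction left the same 5 genes. Over all genes, 882 were called without a fold minimum, against 1285 with DESeq2, 1632 with no filter, 455 at an adjusted p under 0.05 and 150 to 1470 with a library left out, and 106 at 2-fold, against 29 among protein-coding genes only, with their mean above 2 CPM, 293 with no filter, 51 at an adjusted p under 0.05 and 31 to 188 with a library left out. After the GC correction, 1060 genes over all (5.67%) were called without a fold minimum. The 5 called genes of the related lists were 9 with DESeq2, 11 with no filter and 1 to 5 with a library left out. The cause of these shifts was not tested, except that fewer libraries entered the fits without a library.

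Replicate numbers do not pair the mice: the correlation of deviations between libraries with the same number was −0.026, 0.025 and 0.078, and not every library correlated best with its own number. With the replicate block, 8 chains were called (adding Col23a1, Col4a1 and Col4a2), 1105 genes over all and 9 genes of the related lists, although Itga2 was lost (edgeR adjusted p = 0.115). The block with a GC correction called 12 genes of the related lists and 6 chains, 3 higher (Col4a1, Col4a2 and Col4a5) and 3 lower, with Col15a1 (edgeR adjusted p = 0.123) and Col5a1 (0.137) lost. That fit called 1141 genes over all (6.11%).

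The median log2 fold change of the chains ranged from −0.02 to 0.07 over the alternatives, less than the spread between libraries (0.0631) from its main value. The log2 fold change of Col3a1, 0.01, was 0.00 with no filter and −0.03 to 0.06 with a library left out. Ratios that changed sign with a library left out lay near 0: the log2 difference of Col4a1 to Col4a2 ranged from −0.03 to 0.04, that of Col4a3 to Col4a4 from −0.02 to 0.09 and that of Col4a3 to Col4a5 from −0.10 to 0.09, the lowest of the last pair without WT replicate 1. Of the called chains, only Col8a2 kept its call in every fit with a library left out, so a chain with an adjusted p near 0.1 is weakly grounded. The 12.4% of false calls in simulated counts is a share of all calls and was not split by adjusted p. Chains under 100 counts could differ by much without being detected, which the simulation did not cover. Col2a1, among them, did not pass at a log2 fold change of −1.28.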
